A study of Mus musculus with 6 samples.

Results

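The genes described here are 9 genes of the lipid barrier of the epidermis, Elovl4, Cers3, Cyp4f39, Pnpla1, Ugcg, Abca12, Alox12b, Aloxe3 and Smpd3. They were chosen by name, and every non-control probe whose transcript identifier maps to one of them was taken. This gave 12 of the 55681 probes of the array, with 2 probes each for Elovl4, Cers3 and Alox12b, and 9 of the 21368 genes that could be named. Where a gene had 2 probes, the values are from the probe that was brighter over all channels, and the other probe is described beside it.

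The lipid barrier is built by keratinocytes as they leave the basal layer and differentiate. Very long fatty acids are hydroxylated at their far end, joined to a sphingoid base and esterified with linoleic acid to give acylceramides. These are capped with glucose and loaded into lamellar bodies. After secretion the linoleate is oxidised by lipoxygenases and the sugar is removed, so that the ceramide can be bound to proteins of the cornified envelope. Loss of several of these genes causes ichthyosis, a disorder of scaling skin with water loss.

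The RNA came from primary keratinocytes of newborn mouse skin (strain 129SvEx:C57BL/6 in the labels), grown for 3 passages with J2 feeder cells, which are fibroblasts, and then kept off them for at least 2 passages. The Sox4 cKO cells were Krt14-Cre;Sox4 fl/fl, the Sox11 cKO cells Krt14-Cre;Sox11 fl/fl and the dcKO cells Krt14-Cre;Sox4 fl/fl;Sox11 fl/fl, so deletion was limited to cells in which the keratin 14 promoter had been active. Sox4 and Sox11 are closely related transcription factors of the SoxC group. The Krt14-Cre line was of FVB/N background, which the labels do not list for these cultures. The floxed lines came from a cross that also carried a Sox12 deletion, and the labels do not give the Sox12 genotype of these cultures. On each of 6 two-colour arrays, 2 per genotype, knockout RNA was hybridised together with wild-type RNA. Knockout RNA was in Cy5 on replicate 1 and in Cy3 on replicate 2 of every genotype, so a replicate number and a dye orientation cannot be told apart. The labels call the arrays biological replicates without saying whether the wild-type RNA on different arrays came from separate cultures, so the p-values measure only the spread between these arrays.

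The targeted genes were lower where the labels place a deletion. Log2 knockout over wild type of Sox4 was -2.49 and -2.54 on the Sox4 cKO arrays and -2.23 and -2.81 on the dcKO arrays, against 0.06 and -0.35 on the Sox11 cKO arrays. That of Sox11 was -3.31 and -2.65 in Sox11 cKO and -3.07 and -3.79 in dcKO, against 0.82 and -0.97 in Sox4 cKO. All 7 basal keratinocyte markers (Krt5, Krt14, Trp63 and 4 adhesion genes) were well above background in all 12 channels, as were 7 of the 10 suprabasal markers on the array. Among the 8 fibroblast markers, Col1a1, Col3a1, Pdgfrb, Thy1 and Lum were well above background in none of the 12 channels. Col1a2 was above it in all channels of the Sox11 cKO and dcKO arrays, and in 2 knockout and 1 wild-type channels of Sox4 cKO. Dct and Tyrp1 of the 5 melanocyte markers, Tyrobp and Lyz2 of the 6 immune cell markers, and 4 of the 6 sebocyte markers were also above background in none. Cd3e and the sebocyte marker Scd1 were above background in all 12. The melanocyte markers Pmel and Mlana and the sebocyte marker Mc5r were above it in at least 1 knockout and 1 wild-type channel of every genotype. Signal of these other cell types was thus not absent for every marker. Between 35.1% and 45% of probes were well above background per channel.

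Promoter sequences are shown for the 4 genes that had an unadjusted p under 0.05 in any genotype, as the stretches that lie next to the transcription starts of the genes the results turn on. Each is the 250 bases before the RefSeq transcription start, read 5′ to 3′ on the gene's own strand, with coordinates of GRCm38.p6. Capitals mark a match to ACAATG or ACAAAG, 2 sequences of the SOX type that share their first 4 letters, searched on both strands.
Elovl4 (chr9:83806306-83806555, minus strand): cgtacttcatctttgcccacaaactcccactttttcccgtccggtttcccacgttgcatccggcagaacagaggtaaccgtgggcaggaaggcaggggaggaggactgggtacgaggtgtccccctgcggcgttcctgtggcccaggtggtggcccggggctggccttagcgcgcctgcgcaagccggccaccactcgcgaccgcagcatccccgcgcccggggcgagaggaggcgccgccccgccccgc
Cers3 (chr7:66743254-66743503, plus strand): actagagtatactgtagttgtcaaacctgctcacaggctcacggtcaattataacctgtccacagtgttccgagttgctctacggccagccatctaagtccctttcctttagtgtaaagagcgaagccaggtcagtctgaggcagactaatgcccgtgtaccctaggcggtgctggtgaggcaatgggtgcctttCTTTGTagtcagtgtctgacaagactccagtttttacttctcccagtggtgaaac
Ugcg (chr4:59189300-59189549, plus strand): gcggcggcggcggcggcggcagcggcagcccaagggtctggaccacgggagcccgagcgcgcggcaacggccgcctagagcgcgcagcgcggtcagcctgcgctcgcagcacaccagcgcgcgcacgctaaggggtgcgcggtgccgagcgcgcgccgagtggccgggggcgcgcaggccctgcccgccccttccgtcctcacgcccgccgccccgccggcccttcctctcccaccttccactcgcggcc
Abca12 (chr1:71414911-71415160, minus strand): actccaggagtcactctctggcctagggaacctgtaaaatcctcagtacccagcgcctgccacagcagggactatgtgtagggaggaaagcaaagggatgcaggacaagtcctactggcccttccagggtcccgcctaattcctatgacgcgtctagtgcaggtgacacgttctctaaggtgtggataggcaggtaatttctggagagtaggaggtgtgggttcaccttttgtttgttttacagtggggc

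Of these 4 windows, the one match was in Cers3, an ACAAAG on the strand opposite to the printed one, 55 to 50 bases before the start. Promoters of 7 of the 9 genes were found in the RefSeq table, and 3 of the 7 held at least 1 of the motifs (Cers3 and Cyp4f39 ACAAAG, Pnpla1 ACAATG). Over all 32851 promoter windows of the same length, 10.7% held ACAATG, 16.5% held ACAAAG and 25.2% held either. A match is only a stretch of letters, and the absence of one in 250 bases says nothing of binding elsewhere.

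Signal of 5 genes was well above background in all 12 channels, namely Elovl4, Cers3, Ugcg, Abca12 and Aloxe3. Alox12b passed in 11 of the 12 channels, Cyp4f39 in 8, Pnpla1 in 6 and Smpd3 in 1. Levels below are log2 intensities of 1 channel after background correction and normalisation, and they can be compared between channels for 1 probe but not between probes.

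**Figure D1:**
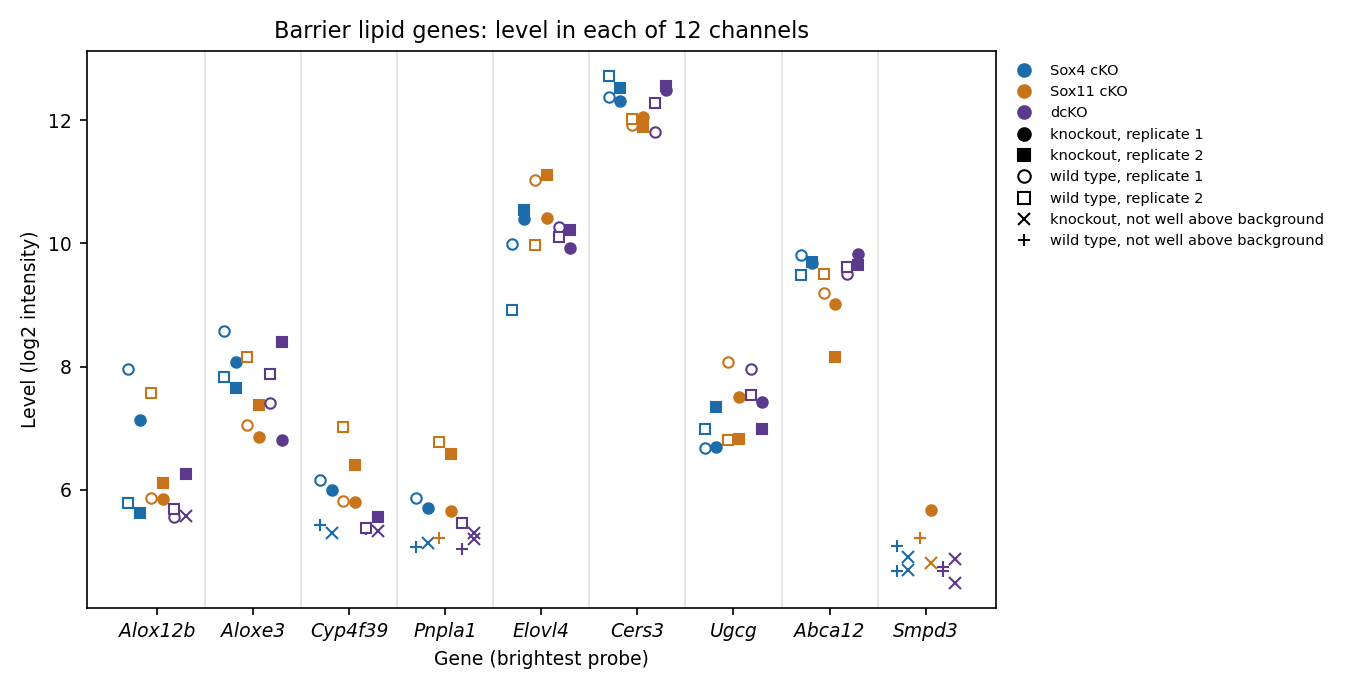
Log2 intensity of the brightest probe of each gene in all 12 channels. Colours give the genotype of the array, filled symbols the knockout channel, open symbols the wild-type channel, circles replicate 1 and squares replicate 2, while diagonal crosses mark knockout and upright crosses wild-type channels not well above background. For Elovl4 the lowest of the 12 points is a wild-type channel (8.92), and for Abca12 it is a Sox11 cKO channel (8.16). Heights of different genes are not comparable.

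No gene of the 9 passed the thresholds of the study, an adjusted p under 0.05 with an absolute log2 fold change over 1.5 (limma), in any of the 3 knockouts. Over all probes, 0.14% passed in Sox4 cKO, 0.0862% in Sox11 cKO and 0.756% in dcKO, and 0 of 9 is near each of these shares. At an unadjusted p under 0.05, 1 gene passed in Sox4 cKO (Elovl4), 1 in Sox11 cKO (Abca12) and 2 in dcKO (Cers3 and Ugcg), where 7.4%, 6.84% and 13% of all probes did. Many probes on the array were dim, and among genes well above background in at least 1 channel of both arrays the shares were 16.5%, 16.3% and 32.7%. The smallest adjusted p was 0.262 in Sox4 cKO, 0.518 in Sox11 cKO and 0.169 in dcKO. The largest fitted change was 1.02 on the log2 scale, so the 9 genes missed the fold threshold as well as the one for adjusted p.

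**Figure D2:**
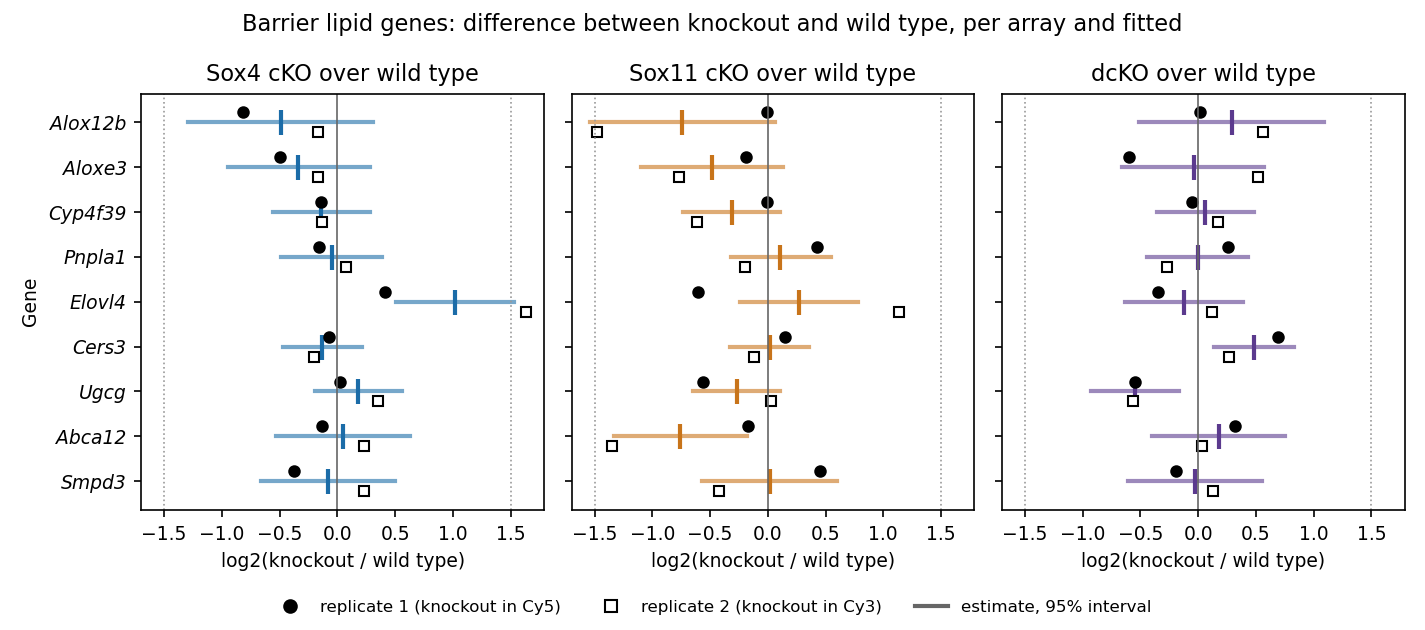
Log2 knockout over wild type of the 9 genes in each genotype. Black circles are replicate 1, open squares replicate 2, coloured ticks the fitted difference and coloured bars its 95% confidence interval, and dotted lines mark the fold threshold of 1.5. The intervals leave out 0 only for Elovl4 in Sox4 cKO, Abca12 in Sox11 cKO, and Cers3 and Ugcg in dcKO.

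Elovl4, the elongase that makes the very long fatty acids of acylceramides, differed most from wild type in Sox4 cKO. On replicate 1 its level was 10.39 in the knockout and 9.99 in the wild-type channel, and on replicate 2 it was 10.55 against 8.92. Both knockout channels lay above both wild-type channels, and the knockout levels were closer to each other than the wild-type levels were. The fitted difference was 1.02 (SE 0.22, 95% CI 0.51 to 1.53, adjusted p = 0.262 by limma), about 2.02-fold. The wild-type channel of replicate 2 was the lowest of all 12 channels. In the 6 wild-type channels Elovl4 ran from 8.92 to 11.03 with a median of 10.04, a range of 4.3-fold.

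The other genotypes gave Elovl4 no common direction. In Sox11 cKO the log2 ratio was -0.60 on replicate 1 and 1.14 on replicate 2, with levels of 10.42 against 11.03 and 11.12 against 9.98. In dcKO it was -0.35 and 0.12, with levels of 9.92 against 10.27 and 10.22 against 10.10. The fitted differences were 0.27 (SE 0.22, adjusted p = 0.936) and -0.12 (SE 0.22, adjusted p = 0.915, limma). In each genotype the ratio was higher on replicate 2, where the knockout was in Cy3, and the fitted Cy5 over Cy3 effect for this probe was -0.57 (unadjusted p = 0.00229, adjusted p = 0.152). Without a term for dye the adjusted p of Elovl4 in Sox4 cKO was 0.999, and over the 15 alternatives it ran from 0.0253 to 1, while the fitted log2 difference ran from 0.96 to 1.12.

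The dimmer Elovl4 probe had the same pattern. Its log2 ratios were 0.47 and 1.55 in Sox4 cKO, -0.54 and 1.17 in Sox11 cKO, and -0.18 and 0.19 in dcKO. The fitted difference in Sox4 cKO was 1.01 (SE 0.23, adjusted p = 0.292, limma). Both probes thus read alike on all 6 arrays, although they share the RNA and its labelling.

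Cers3, the ceramide synthase that attaches these fatty acids to the sphingoid base, had a positive difference on both dcKO arrays. Its level was 12.50 in the knockout against 11.81 in wild type on replicate 1 and 12.56 against 12.29 on replicate 2. The 2 knockout channels lay above the 2 wild-type channels, although wild-type channels of the Sox4 cKO arrays reached 12.72. The fitted difference was 0.48 (SE 0.15, 95% CI 0.14 to 0.83, adjusted p = 0.183, limma), and it turned to -0.07 when the arrays were centred on their median in place of loess. Cers3 differed by -0.13 (SE 0.15) in Sox4 cKO and 0.02 (SE 0.15) in Sox11 cKO. The dimmer Cers3 probe, with levels from 5.82 to 6.50, gave 0.00, 0.02 and 0.02 in the 3 genotypes, so the 2 probes disagreed in dcKO.

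Ugcg, the synthase that adds glucose to ceramide, had nearly equal log2 ratios on the 2 dcKO arrays. The level was 7.42 against 7.96 in wild type on replicate 1 and 6.98 against 7.54 on replicate 2, which gave log2 ratios of -0.55 and -0.56. Both knockout levels lay below both wild-type levels of dcKO, by a narrow margin. The fitted difference was -0.55 (SE 0.16, 95% CI -0.93 to -0.17, adjusted p = 0.169, limma), and with median centring it was -0.97. It ran from -0.31 without dcKO replicate 2 to -0.79 without dcKO replicate 1, since the dye term was then estimated from the other genotypes. Ratios were 0.02 and 0.35 in Sox4 cKO and -0.56 and 0.03 in Sox11 cKO. Wild-type channels ran from 6.68 to 8.08, wider than the knockout channels, which ran from 6.70 to 7.51.

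Abca12, the transporter that loads glucosylceramide into lamellar bodies, had its lowest level in Sox11 cKO, on 1 of the 2 arrays. On replicate 1 the level was 9.02 against 9.19 in wild type, and on replicate 2 it was 8.16 against 9.51. The fitted difference was -0.76 (SE 0.25, 95% CI -1.33 to -0.18, adjusted p = 0.518, limma), while the ratios were -0.17 and -1.35. The 6 wild-type channels were close together, from 9.19 to 9.81, and the knockout channels of Sox4 cKO (9.69 and 9.70) and dcKO (9.83 and 9.65) lay inside or just above that range. The difference was 0.05 (SE 0.25) in Sox4 cKO and 0.18 (SE 0.25) in dcKO, the latter turning to -0.36 with median centring.

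**Figure D3:**
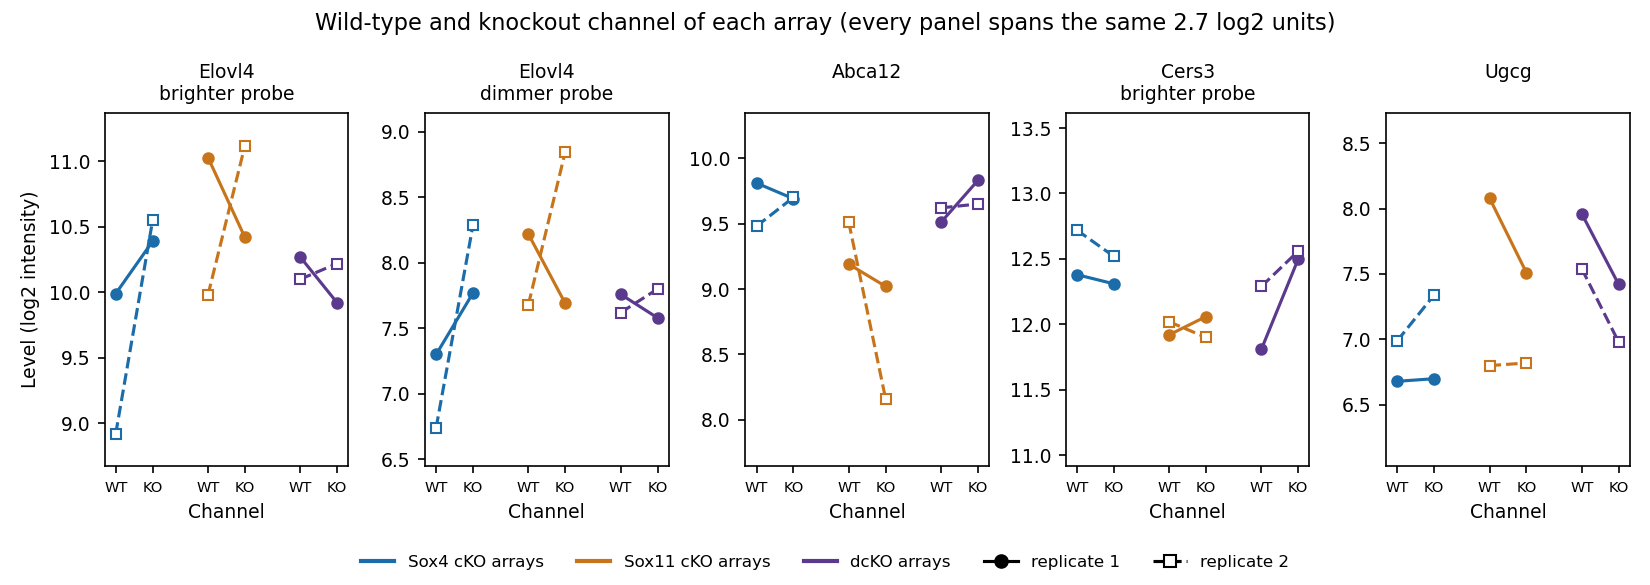
Wild-type (WT) and knockout (KO) levels joined for each array, for both Elovl4 probes, Abca12, the brighter Cers3 probe and Ugcg. Solid lines and circles are replicate 1, dashed lines and open squares replicate 2, and the vertical span is equal in all panels. The steep dashed Elovl4 line in Sox4 cKO starts from the lowest wild-type level (8.92), and the steep dashed Abca12 line in Sox11 cKO ends at the lowest knockout level (8.16).

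Alox12b and Aloxe3 encode the lipoxygenases that act in sequence on the linoleate of acylceramides. The brighter Alox12b probe read 7.13 against 7.96 in wild type and 5.62 against 5.79 on the Sox4 cKO arrays, and 5.85 against 5.86 and 6.10 against 7.57 on the Sox11 cKO arrays. On the dcKO arrays it read 5.57, not well above background, against 5.55, and 6.25 against 5.69. Wild-type channels of this probe spanned 5.55 to 7.96, a 5.31-fold range, and the fitted differences in Sox4 cKO, Sox11 cKO and dcKO were -0.49 (SE 0.34), -0.74 (SE 0.34, 95% CI -1.54 to 0.06, adjusted p = 0.765, limma) and 0.29 (SE 0.34).

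The other Alox12b probe ran from 5.76 to 6.49 in the wild-type channels. It gave -0.28 (SE 0.16), -0.11 (SE 0.16) and -0.05 (SE 0.16) in Sox4 cKO, Sox11 cKO and dcKO, so the wide spread was seen with 1 of the 2 probes. Aloxe3 had log2 ratios of -0.50 and -0.17 in Sox4 cKO, -0.19 and -0.77 in Sox11 cKO and -0.60 and 0.52 in dcKO. Both single knockouts were lower on both arrays and dcKO was divided, but the fitted values of -0.34, -0.48 and -0.04 (SE 0.26 each) all had 95% intervals that included 0.

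Cyp4f39, the hydroxylase that acts on the end of the very long fatty acid, was well above background in a part of the channels. In Sox11 cKO, where all 4 channels were well above background, its levels were 5.80 against 5.81 and 6.40 against 7.01, and the fitted difference was -0.31 (SE 0.18, adjusted p = 0.862, limma). In Sox4 cKO it was -0.14 (SE 0.18) and in dcKO 0.06 (SE 0.18), with 2 of the 4 channels well above background in each.

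Pnpla1, the transacylase that places linoleate on the ceramide, was well above background in both channels of Sox4 cKO replicate 1 (5.70 and 5.87) and Sox11 cKO replicate 2 (6.58 and 6.78). It was also above background in the knockout of Sox11 cKO replicate 1 (5.65) and the wild type of dcKO replicate 2 (5.46). It was not above background in either dcKO knockout channel, so its fitted values in dcKO have no measured direction. Smpd3, a neutral sphingomyelinase that releases ceramide from sphingomyelin, was well above background in 1 channel, the knockout of Sox11 cKO replicate 1 (5.67). Its level was therefore not measured in the other 11 channels, and its fitted values between -0.08 and 0.02 say nothing of a change.

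As a group the 9 genes had no common direction. Among those well above background in at least 1 channel of both arrays, 2 of 6 in Sox4 cKO were higher than wild type on both arrays (Elovl4 and Ugcg) and 3 lower (Cers3, Alox12b and Aloxe3). Of all genes measured that way in Sox4 cKO, 27.6% were higher and 26.2% lower on both. In Sox11 cKO 0 of 8 were higher and 4 lower on both arrays (Abca12, Alox12b, Aloxe3 and Cyp4f39), against 22.2% and 21.8% of all genes. In dcKO 3 of 6 were higher (Cers3, Abca12 and Alox12b) and 1 lower (Ugcg) on both, against 30.2% and 39% of all genes. The fitted differences of Cers3 and Abca12 there turned negative with median centring, and Alox12b read only 0.02 on replicate 1. These counts depend on the probe used. The other Cers3 probe was divided in Sox4 cKO (-0.10 and 0.11) and in dcKO (-0.01 and 0.05). The other Alox12b probe was lower on both Sox4 cKO arrays (-0.12 and -0.43) but divided in Sox11 cKO (0.11 and -0.33). In dcKO that probe was not higher (-0.09 and 0.00). The median fitted difference over the measured members was -0.04, -0.29 and 0.07 in Sox4 cKO, Sox11 cKO and dcKO, where that of all measured genes was 0.01, 0.00 and -0.05.

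The 4 genes that were lower in Sox11 cKO had their lower values on replicate 2 in each case, from -0.61 to -1.48, against -0.01 to -0.19 on replicate 1. The medians of the marker genes of both keratinocyte layers were also lower on replicate 2, although single markers went the other way. Over the 9 suprabasal markers that were measured, the median log2 ratio was 0.14 on replicate 1 and -1.08 on replicate 2, and 3 of them were lower on both arrays, 1 higher and 5 opposite. Over the 7 basal markers it was -0.26 and -0.60. Krt5 read 0.94 and -1.44, Col17a1 -0.26 and -1.62, and Krt14 0.15 and -0.48. Itga6 (-0.41 and -0.60) and Itgb4 (-0.49 and -0.70) differed little between the arrays. Trp63 (0.05 and 0.32) and Itga3 (-0.68 and 0.03) were higher on replicate 2. Over the 8 measured barrier lipid genes the median log2 ratio was -0.09 and -0.41, and no marker of either layer was called. The log2 of the summed intensity of all 10 suprabasal markers on the array ran, in Sox11 cKO, from 13.86 to 14.20 in the knockout and from 13.94 to 15.66 in the wild-type channels, a sum in which Sbsn, with mean levels of 13.50 and 14.38, counted most. Involucrin (Ivl) read 0.42 and -1.16, corneodesmosin (Cdsn) 0.25 and -1.56 and caspase-14 (Casp14) -0.23 and -1.38. Transglutaminase 1 (Tgm1) read 0.84 and 0.59, and transglutaminase 3 (Tgm3), at -0.28 and -0.15, was higher on replicate 2. In the other genotypes the markers and the barrier lipid genes were less alike. The median fitted difference of the measured suprabasal markers was -0.30 in Sox4 cKO and 0.50 in dcKO. That of the basal markers was 0.02 and -0.48, and that of the measured barrier lipid genes -0.04 and 0.07. Whether the state of differentiation of these cultures had a part in the barrier lipid values was not tested.

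The Sox11 cKO result rested on these 2 arrays unequally. Without Sox11 cKO replicate 1, 1 gene was called in Sox11 cKO, Alox12b at -1.78 (adjusted p = 0.00375, limma, against 0.00375 to 1 over its 15 alternatives), and Abca12 had -1.37 with an adjusted p of 0.0292, within 0.0292 to 1. Without Sox11 cKO replicate 2, Alox12b was 0.29 and Abca12 -0.15. With 1 array of a genotype left, that array was assumed to vary like the others, and 793 probes in place of 48 were called in Sox11 cKO without replicate 1.

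Differences between the genotypes were tested in the same model. Each is a difference of log2 knockout over wild type, so it depends on the wild-type channels as well as on the knockout channels. No gene was called in dcKO minus Sox4 cKO, dcKO minus Sox11 cKO or Sox4 cKO minus Sox11 cKO, where 0.562%, 0.449% and 0.0108% of probes were. At an unadjusted p under 0.05 there were 3, 1 and 1 genes, against 12.1%, 10.3% and 6.35% of probes. For Elovl4, dcKO minus Sox4 cKO was -1.13 (SE 0.31, 95% CI -1.85 to -0.41, adjusted p = 0.184, limma). Its mean knockout level was 10.07 in dcKO and 10.47 in Sox4 cKO, and its mean wild-type level was 10.19 and 9.46. In the same comparison Ugcg differed by -0.74 (SE 0.23, adjusted p = 0.241) and Cers3 by 0.62 (SE 0.21, adjusted p = 0.283, limma). The dimmer probes gave -1.01 (SE 0.32) for Elovl4 but 0.02 (SE 0.21) for Cers3. The mean Ugcg knockout level was 7.20 in dcKO and 7.02 in Sox4 cKO, and its mean wild-type level was 7.75 and 6.83. Abca12 was higher in dcKO than in Sox11 cKO by 0.94 (SE 0.35, adjusted p = 0.389, limma), and Elovl4 was higher in Sox4 cKO than in Sox11 cKO by 0.75 (SE 0.31, adjusted p = 0.771, limma). Without Sox11 cKO replicate 1, 2 genes were called in dcKO minus Sox11 cKO, Alox12b (2.07) and Abca12 (1.55), and with median centring 1 was called in dcKO minus Sox4 cKO, Elovl4 (-1.76).

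The wild-type channels alone varied widely for these genes. Over the 5 genes measured in all channels, the median SD of the 6 wild-type log2 levels was 0.54, and over the 17800 probes measured in all channels it was 0.31. The SD was 0.68 for Elovl4, 0.60 for Ugcg, 0.54 for Aloxe3, 0.34 for Cers3 and 0.20 for Abca12, so that Abca12 was steadier than the median probe and the other 4 were not. Wild type was in Cy3 on replicate 1 and in Cy5 on replicate 2, so these values hold the dye effect, and around the mean of each dye the SD was 0.60 for Elovl4, 0.61 for Ugcg, 0.58 for Aloxe3, 0.33 for Cers3 and 0.23 for Abca12, with a median of 0.30 over all those probes. No fitted difference of Aloxe3, Cers3 or Ugcg exceeded the range of its own wild-type channels, which was 1.53, 0.91 and 1.40. For Elovl4 that range was 2.11 against a largest fitted difference of 1.02, and for Abca12 it was 0.62 against -0.76 in Sox11 cKO. These ranges are of levels between arrays, while each fitted difference comes from ratios within arrays. The ranges are therefore no measure of the error of a difference, which the SE gives.

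Genes whose level over the 12 channels followed a barrier lipid gene most closely were taken from the 10149 genes well above background in all channels. For Elovl4 these were Wdhd1 (Pearson r = 0.945), Rad51ap1 (0.917) and Ska3 (0.910). For Ugcg they were Lpcat1 (0.936), Arhgef1 (0.925) and Slc39a14 (0.917), and for Aloxe3 Plekhg5 (0.947), Eea1 (0.928) and Park7 (0.900). Abca12 was followed by Ube3c (0.911), Tyw1 (0.898) and Ddx3x (0.889), and Cers3 by Hipk3 (0.908), 4930486L24Rik (0.908) and Nek9 (0.907). None of these 5 was among the 3 closest to another of them, and the other 4 barrier lipid genes were not compared, since they were not well above background in all channels. The 12 channels share arrays, dyes and perhaps cultures, so these are descriptions of likeness over 12 points and carry no test.

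The wider barrier lipid pathway was followed through 80 further genes in 6 lists, of which 78 were on the array under their names. None was called in Sox4 cKO or Sox11 cKO, and 1 was called in dcKO (1.28%), where 0.756% of all probes were. At an unadjusted p under 0.05 there were 9, 9 and 21 genes, which is 11.5%, 11.5% and 26.9% of the 78. Among those well above background on both arrays the shares were 14%, 13.8% and 34.5%, near the 16.5%, 16.3% and 32.7% of all genes measured that way. The median fitted difference over the 57 or 58 measured genes was 0.03, -0.05 and 0.08 in Sox4 cKO, Sox11 cKO and dcKO, beside 0.01, 0.00 and -0.05 for all measured genes.

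**Figure D4:**
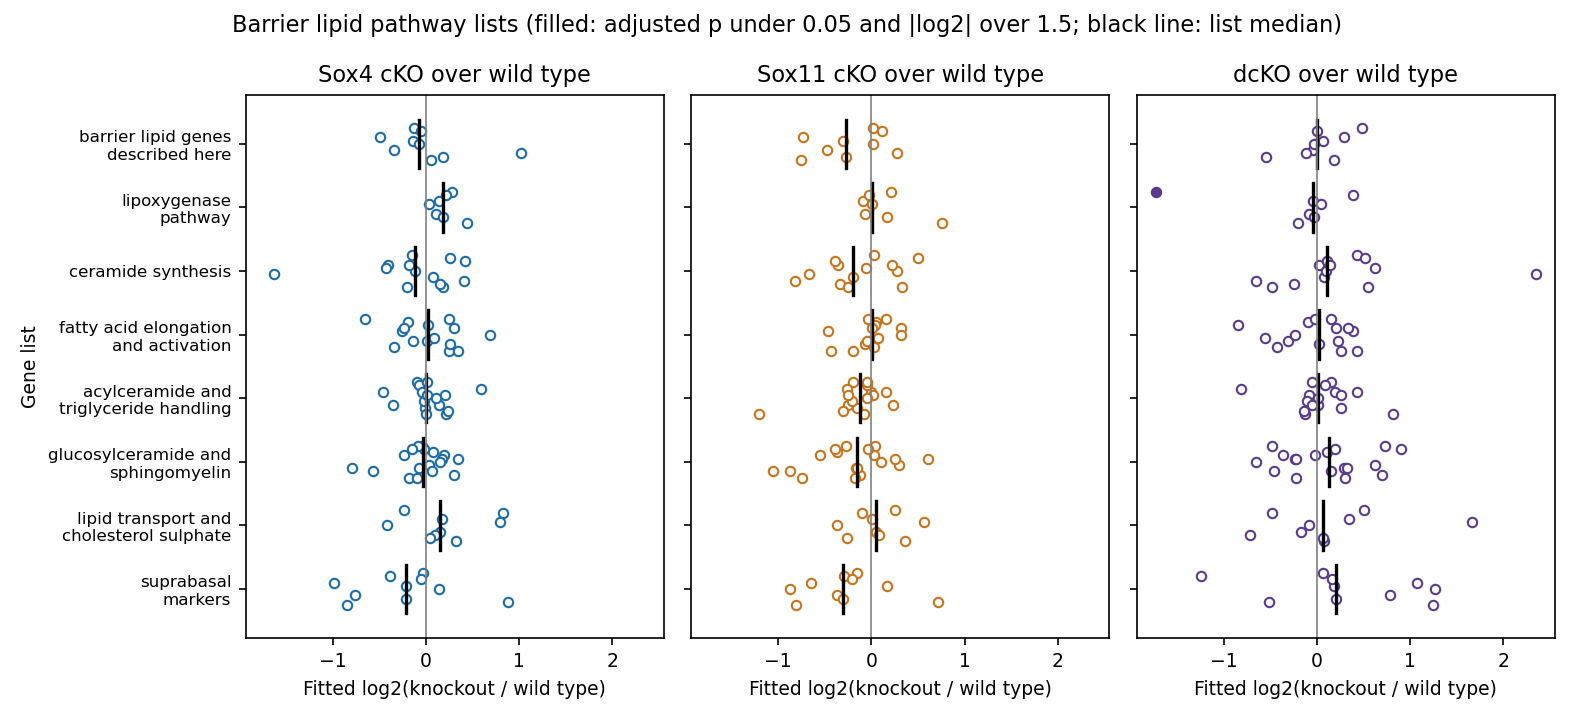
Fitted log2 knockout over wild type of the 9 genes, of 6 lists of other barrier lipid genes and of the suprabasal markers, 1 point per gene. The filled point had an adjusted p under 0.05 and an absolute log2 fold change over 1.5, which was Alox5 (-1.73) in dcKO. Black lines are list medians over all matched genes, which lie between -0.30 and 0.20.

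The gene called was Alox5, a lipoxygenase best known for leukotriene synthesis. Its log2 ratio was -1.77 and -1.69 in dcKO, with a fitted difference of -1.73 (SE 0.27, adjusted p = 0.0246, limma). It was not well above background in either dcKO knockout channel. With the lowest signal above background as a floor, it was 3.22-fold lower than in wild type. This is not a strict lower bound, since probes not above background can read higher than that floor. In the knockout channel of dcKO replicate 1 the floor was 5.44, and Alox12b read 5.57. Elsewhere Alox5 was well above background in 1 knockout channel of Sox4 cKO and in 1 wild-type channel of Sox11 cKO.

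Other genes with a small p in dcKO were Elovl7, another fatty acid elongase, at -0.85 (SE 0.17, adjusted p = 0.0582), and Degs1, the dihydroceramide desaturase, at 0.62 (SE 0.14, adjusted p = 0.0877, limma). The sterol exporter Abcg1 was at 1.67 (SE 0.39, adjusted p = 0.0914, limma). In Sox4 cKO and Sox11 cKO its values were 0.79 and 0.56 (SE 0.39 each).

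By step of the pathway, the ceramide synthesis list (13 of 14 genes on the array) had 4 of 10 measured genes higher and 3 lower on both dcKO arrays. The fatty acid elongation and activation list had 7 of 13 higher and 5 lower there, and the glucosylceramide and sphingomyelin list 6 of 16 higher and 3 lower. The acylceramide and triglyceride list had 3 of 9 higher and 2 lower, the lipid transport list 3 of 8 and 2, and the lipoxygenase list 0 of 2 and 1. Of all genes measured that way in dcKO, 30.2% were higher and 39% lower on both arrays. In Sox11 cKO 10 of 16 measured genes of the glucosylceramide and sphingomyelin list were lower on both arrays and 2 higher, beside 21.8% and 22.2% of all genes, with a median of -0.16 and 0 genes past the threshold. That list was singled out by its count, which was not tested. In the other 5 lists between 0 and 3 genes were lower on both Sox11 cKO arrays. These were 3 of 10 for ceramide synthesis, 3 of 9 for acylceramide and triglyceride, and 2 of 13 for elongation and activation. For lipid transport it was 2 of 8 and for the lipoxygenases 0 of 2. Sptlc3, a subunit of serine palmitoyltransferase chosen after its values were seen, had the widest points in the plot of the lists. In dcKO its log2 ratios were 0.15 and 4.55, and it was above background in 1 of the 2 knockout channels and in neither wild-type channel. With the lowest signal above background as a floor, the mean of both knockout channels was 4.44-fold higher. That value rested on replicate 2 and on the floor, so it is no lower bound for the genotype. In Sox4 cKO its log2 ratios were -2.72 and -0.55, and neither difference passed the test (adjusted p = 0.172 and 0.671, limma).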

How the data were processed

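Gene expression was measured on 6 two-colour Agilent mouse arrays, all on 1 slide and in 1 scan, 2 for each of Sox4 cKO, Sox11 cKO and dcKO against wild type. The deposited scanner files (Feature Extraction 11.0.1.1 in the submitters' processing notes) hold the median spot and background intensity of each dye (linear and not normalized), Feature Extraction's processed signals, and marks of 0 or 1 for outlier spots and for spots well above background. The authors also deposited 1 table of log2 ratios per array, which per the labels and methods came from limma and a batch correction for dye. It was used only as an alternative, and its columns correlated with knockout over wild type as labelled (r from 0.89 to 0.952). No column of the authors' own comparisons was used.

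Here the median intensities were corrected with normexp (offset 16) and normalized by loess within arrays (limma 3.58.1, R 4.3.3). Of the 62976 spots per array, 3671 controls were left out, and 194 to 288 outlier spots per array were set to missing. Spots of a probe were averaged, which left 55681 probes. Probes were named through their transcript accession and RefSeq (GRCm38.p6), which named 28331. Knockout over wild type was fitted with 1 term per genotype and 1 for dye, the same as a replicate block, with moderated tests and Benjamini-Hochberg adjustment over all probes. Residual degrees of freedom were 2 and prior ones 5.37. Same-numbered arrays deviated together (r = 0.316, 0.244 and 0.125), but they also share the dye orientation. Channel levels were set after Aquantile normalization. For a probe not above background on either array of a side, the lowest signal above background served as a floor for its fold. The number of arrays limits the precision, and saturation was not met (0 spots). The fit was tested on simulated data.

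Named were all 9 genes, other pathway genes with an adjusted p under 0.05 or, up to 5, the smallest p in dcKO, both targeted genes, and the 3 genes most correlated with each member measured in all 12 channels. A pathway gene that the rule names is not reported here. The members, lists and tests were chosen with earlier results of these data known. Alternatives changed the offset, signal source, normalization, dye term, arrays fitted, filter, probe choice and replicates.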

Additional observations from a re-analysis of the deposited data

How the results depend on the processing

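The count of barrier lipid genes called stayed at 0 in all 6 comparisons with an offset of 50, Feature Extraction's processed signals, no replicate block (0 in each comparison), the dye effect subtracted first, fewer genotypes in the fit, a filter on dim probes, the authors' log2 ratios and the mean over a gene's probes. With the processed signals 0 probes of the whole array were called in each of the 6 comparisons. An offset of 50 left 0 probes called in Sox11 cKO, dcKO minus Sox4 cKO and dcKO minus Sox11 cKO. The Sox11 cKO arrays fitted alone also gave 0 probes. In those settings the count of barrier lipid genes could only be 0, so it says nothing of stability. With median centring 1 gene was called in dcKO minus Sox4 cKO. When 1 array was left out the count ran from 0 to 1 in Sox11 cKO and from 0 to 2 in dcKO minus Sox11 cKO, in both cases highest without Sox11 cKO replicate 1, and stayed at 0 in the other 4 comparisons. The alternative with mean spot signals was not run, because the files used hold median spot signals.

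Of the fold changes of single genes under the alternatives, 376 kept their direction and side of the threshold, 25 had the opposite sign and 1 passed the threshold (Alox12b in Sox11 cKO, -1.78). Of the 25, 8 were of Smpd3 or of Pnpla1 in dcKO, where knockout, wild type or both were above background on neither array, and these have no measured direction to turn. Median centring turned Abca12 (-0.36) and Cers3 (-0.07) in dcKO, where the unmeasured Pnpla1 and Smpd3 read 0.01 and 0.09. The processed signals turned Cers3 in Sox11 cKO (-0.05), Pnpla1 in Sox4 cKO (0.22) and Cyp4f39 in dcKO (-0.54), where the unmeasured Pnpla1 and Smpd3 read 0.24 and 0. The cause was not tested.

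With 1 array left out, the fold changes whose sign changed ran as follows. In Sox4 cKO, Abca12 ran from -0.50 to 0.60, Alox12b from -1.05 to 0.07, Pnpla1 from -0.45 to 0.36 and Smpd3 from -0.52 to 0.37. In Sox11 cKO, Alox12b ran from -1.78 to 0.29, Aloxe3 from -1.14 to 0.17, Cyp4f39 from -0.67 to 0.04, Elovl4 from -0.18 to 0.72, Pnpla1 from -0.13 to 0.36 and Smpd3 from -0.65 to 0.69. In dcKO, Alox12b ran from -0.18 to 0.76, Aloxe3 from -0.66 to 0.58, Cyp4f39 from -0.19 to 0.32, Elovl4 from -0.62 to 0.39, Pnpla1 from -0.16 to 0.15 and Smpd3 from -0.25 to 0.20.

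Adjusted p fell under 0.05 with a fold change short of the threshold for Elovl4 in Sox4 cKO without either Sox11 cKO array (0.0253, range 0.0253 to 1 over 15 alternatives), Cers3 in dcKO with the dye effect subtracted (0.0416, range 0.0416 to 0.831) and Ugcg in dcKO with median centring (0.0129, range 0.0129 to 0.766). It did so too for Abca12 in Sox11 cKO without replicate 1 (-1.37, 0.0292), for Ugcg in dcKO minus Sox4 cKO with median centring (-1.18, 0.0328), and for Elovl4 in that comparison without either Sox11 cKO array or with both genotypes fitted alone (-1.13, 0.0346). Over all probes, the dcKO calls were 421 (174 higher), and 720 (121 higher) with median centring, 78 with an offset of 50, and 0 with the processed signals.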
